A study of Mus musculus with 4 samples.

Results

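The SOCS family is made of 8 genes, Cish and Socs1 to Socs7, whose proteins act as feedback brakes on cytokine receptors. Its members were taken by gene symbol, and all 8 were found among the 50600 genes of the count files. RNA was measured in 4 libraries of regulatory T cells. They form 1 group, numbered as biological replicates 1 to 4, with no second condition. The cells were primary mouse cells of strain C57BL/6NJ, with no genotype change, agent or age on record. A CD4+ T cell differentiation protocol is linked to every sample, and names inside the files add that the cells were activated, sorted and taken at 72 h. All 4 libraries carry the same donor record and separate biosample records. The labels do not say whether they came from separate animals or cultures, so p-values measure only the spread between these libraries, which may be partly technical.

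A cytokine that binds its receptor activates Janus kinases (JAKs), which phosphorylate the receptor tail and the STAT transcription factors that dock there. STAT factors then switch on genes that include some SOCS genes, and the SOCS proteins bind the phosphorylated receptor or the kinase through an SH2 domain and shut the signal down. A second shared module, the SOCS box, recruits an E3 ubiquitin ligase that marks bound proteins for destruction. Regulatory T cells live on interleukin-2, which signals through JAK1, JAK3 and STAT5, and CIS and SOCS1 are well-known brakes of that pathway.

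The libraries held 32648138 to 94983494 counts of read pairs. The regulatory T cell markers fixed for this check were all present: 7 of 7 reached 1 TPM, counts scaled to gene length and library total, in every library, with Foxp3 at 463 ± 25.4 TPM (SD, n = 4). All 4 T cell markers reached 1 TPM in every library too. Levels differed widely among the 7 regulatory T cell markers. Some of the listed markers of other cells were near 0 and others were not. Lyz2 averaged 0.00644 TPM, Ms4a1 0.00813 TPM and Cd8a 0.332 TPM, and Ncr1, Hbb-bs and Alas2 had no count. At 1 TPM or more in every library were Cd8b1 (14.4 TPM in the mean), Cd79b (5.37 TPM), Eomes (1.96 TPM) and Adgre1 (1.75 TPM). The marker lists of other cells summed to at most 16.6 TPM in a library for CD8 T cells, 7.31 TPM for B cells, 3.29 TPM for myeloid cells, 2.71 TPM for NK cells and 0.245 TPM for erythroid cells. The libraries stand apart in sex-linked RNA. Xist stood at 312, 331, 0.539 and 2.38 TPM in replicates 1 to 4, and Y-linked Ddx3y at 0.0664, 0.0264, 26.05 and 31.2 TPM, so replicates 1 and 2 differ from 3 and 4 in a way the labels do not record, and these levels go against a single donor animal for all 4 libraries.

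Sequences at the gene starts are shown because STAT and IRF factors are the known route from a cytokine receptor to these genes. RefSeq start windows of GRCm38.p6, the build of the count files, were held for 4 of the 8 members (Cish, Socs1, Socs3 and Socs4), each running from 250 bases before to 50 bases after the annotated start. They were searched on both strands for the STAT-type motif TTCNNNGAA, which reads the same on either strand, and the IRF-type motif, GAAA followed after 2 free bases by GAAA. The STAT-type motif occurred in 8.30% of 32851 such windows and at least 2 times in 0.457%, and the IRF-type motif in 3.44% and 0.225%. A match is a run of letters, not a shown binding site. The stretches printed are chr9:107296654-107296683 (plus strand) for Cish and chr11:117969502-117969530 (minus strand) for Socs3. Capitals mark the motifs, which sit at chr9:107296659-107296667 and chr9:107296670-107296678 for Cish, and at chr11:117969512-117969520 for Socs3.
Cish: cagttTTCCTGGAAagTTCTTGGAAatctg
Socs3: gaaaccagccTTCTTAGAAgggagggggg

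Cish thus held 2 STAT-type matches at the RefSeq start, and Socs3 held 1 at 154 bases before its RefSeq start. In the count files both genes begin farther upstream, at base 107296026 for Cish and 117970047 for Socs3. These matches therefore lie inside the gene spans, and their place in exons or introns is not given here. The Socs1 window held no STAT-type match but 2 IRF-type ones, which overlap each other and begin 83 and 77 bases before the start. The 250 bases before the Socs1 start (chr16:10785537-10785786, minus strand) are printed with these in capitals.
Socs1: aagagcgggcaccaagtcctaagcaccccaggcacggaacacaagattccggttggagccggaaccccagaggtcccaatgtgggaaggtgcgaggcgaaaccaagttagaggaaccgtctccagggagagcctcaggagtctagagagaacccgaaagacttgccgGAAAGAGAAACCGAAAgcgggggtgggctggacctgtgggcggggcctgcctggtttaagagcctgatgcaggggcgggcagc

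Neither motif occurred in the Socs4 window.

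Which SOCS genes the cells transcribed, and in what order, was the first comparison. All 8 members reached 1 TPM in every library, as did 49.1% of protein-coding genes and 23.9% of all genes in the files. The family summed to 1036, 1043, 1055 and 956 TPM in replicates 1 to 4, or 0.102 ± 0.00448% of all TPM (SD, n = 4). Socs1 and Cish together made up 78.7 ± 1.04% of that sum. This share depends on the gene length used. By the main transcript length described below, Socs2 averaged 260 TPM, against 90.5 TPM by exon length. In these bulk samples, fewer cells with a transcript and less of it per cell cannot be told apart.

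Socs1 and Cish were the highest members. Socs1 (ENSMUSG00000038037.4, chromosome 16, 10783808 to 10785536 in mm10) encodes the inhibitor that blocks JAK kinase activity directly. It measured 408, 427, 430 and 361 TPM in replicates 1 to 4, from 4429 to 15493 counts. Cish (ENSMUSG00000032578.7, chromosome 9, 107296026 to 107302784) encodes CIS, which binds the phosphorylated interleukin-2 receptor chain and competes with STAT5. It measured 409, 385, 414 and 384 TPM, from 24792 to 78494 counts. These ranges overlapped. On the log2(TPM + 1) scale, Socs1 exceeded Cish by 0.03 ± 0.10 (SD, n = 4) and was the higher of the pair in 2 of 4 libraries, a difference within the spread (exact two-sided sign-flip permutation test, p = 0.75 before and after Benjamini-Hochberg adjustment over all 28 pairs of members). Among all genes by mean TPM, Socs1 ranked 336 and Cish 346.

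Socs2 and Socs3 formed the middle of the family. Socs2 (chromosome 10, 95385362 to 95417180) encodes a brake best known on growth hormone signalling. It measured 93.99, 95.9, 87.04 and 84.9 TPM. Socs3 (chromosome 11, 117966079 to 117970047) encodes the inhibitor that sits on the interleukin-6 receptor chain gp130 and blocks JAK activity there. It measured 49.4, 57.07, 57.5 and 53.5 TPM, below Socs2 in every library. The mean of Cish was 4.40 times that of Socs2, and that of Socs2 1.66 times that of Socs3.

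The members with long N-terminal regions, Socs4 to Socs7, were the lowest. Socs7 (chromosome 11, 97362551 to 97398542), whose protein binds insulin receptor substrates, measured 32.7, 31.7, 28.8 and 28.4 TPM. Socs4 (chromosome 14, 47276931 to 47296098), which like Socs5 is known for lowering epidermal growth factor receptor signalling, measured 27.1, 29.2, 22.9 and 30.06 TPM. Socs7 and Socs4 overlapped, with Socs7 higher in 3 of 4 libraries. Socs5 (chromosome 17, 87107679 to 87137583) measured 8.46, 10.6, 8.38 and 7.57 TPM. Socs6 (chromosome 18, 88665224 to 88927481), known to bind the receptor KIT, measured 6.16, 6.79, 5.45 and 6.16 TPM, from 509 to 1323 counts, and lay below Socs5 in every library.

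The order of levels was therefore Socs1 and Cish, then Socs2, Socs3, Socs7 and Socs4, Socs5 and Socs6. Of the 28 pairs of members, 26 had the same sign in all 4 libraries. The exceptions were Socs1 with Cish and Socs7 with Socs4, whose difference was 0.15 ± 0.18 on the log2(TPM + 1) scale (exact sign-flip permutation, two-sided p = 0.25, adjusted p = 0.259). Each of the 26 had an exact two-sided sign-flip p of 0.13 (adjusted p = 0.135), and no smaller p is possible with 4 libraries. The differences between the other neighbours were 2.13 ± 0.10 for Cish minus Socs2, 0.72 ± 0.14 for Socs2 minus Socs3, 0.82 ± 0.17 for Socs3 minus Socs7, 1.54 ± 0.23 for Socs4 minus Socs5 and 0.44 ± 0.14 for Socs5 minus Socs6 (log2, SD, n = 4).

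Cish and Socs1 to Socs3 are the classical cytokine-induced members, with short proteins. Coding lengths in GENCODE M21 were 257, 212, 198 and 225 residues for Cish, Socs1, Socs2 and Socs3, against 436, 536, 533 and 579 residues for Socs4, Socs5, Socs6 and Socs7. The median level of the short members was 251, 241, 251 and 223 TPM in replicates 1 to 4, against 17.8, 19.9, 15.7 and 17.998 TPM for the long members. On the log2(TPM + 1) scale the medians differed by 3.53 ± 0.13 (SD, n = 4). The difference was positive in all 4 libraries, at the same lowest possible p = 0.13 (exact two-sided sign-flip permutation test). No long member in any library reached the lowest value of a short member, 32.7 against 49.4 TPM.

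The order of the members depended on which length a gene was given. TPM divides counts by the union of every exon annotated for a gene, which was 6419 bp for Cish and 9531 bp for Socs2, where GENCODE M21 main coding transcripts cover 2850 and 2222 bp. For Socs1 the length was 1220 bp under either rule, since the counted GENCODE M13 exons cover only that much of its 2908 bp transcript in M21. In an alternative added after seeing the data, each coding gene was given the part of its main coding transcript that lies in counted exons. Cish then measured 623, 583, 624 and 577 TPM, and Socs1 276, 287, 288 and 241 TPM. Cish exceeded Socs1 in all 4 libraries (Socs1 minus Cish, -1.14 ± 0.10 on the log2 scale). Socs2 measured 272, 277, 249.6 and 243 TPM under this rule, 0.07 ± 0.10 below Socs1 on the log2 scale and lower in 3 of 4 libraries. Socs5 and Socs6 also drew together, at 5.87 ± 0.872 and 5.61 ± 0.515 TPM. The means of 7 of the 8 members moved by more than their SD. Socs1, Socs4 and Socs5 kept their lengths and still had lower means, 273, 18.3 and 5.87 TPM, because TPM is rescaled to the sum over all genes. The rule assumes that all counts of a gene came from its main transcript, and read positions were not analysed here.

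**Figure D1:**
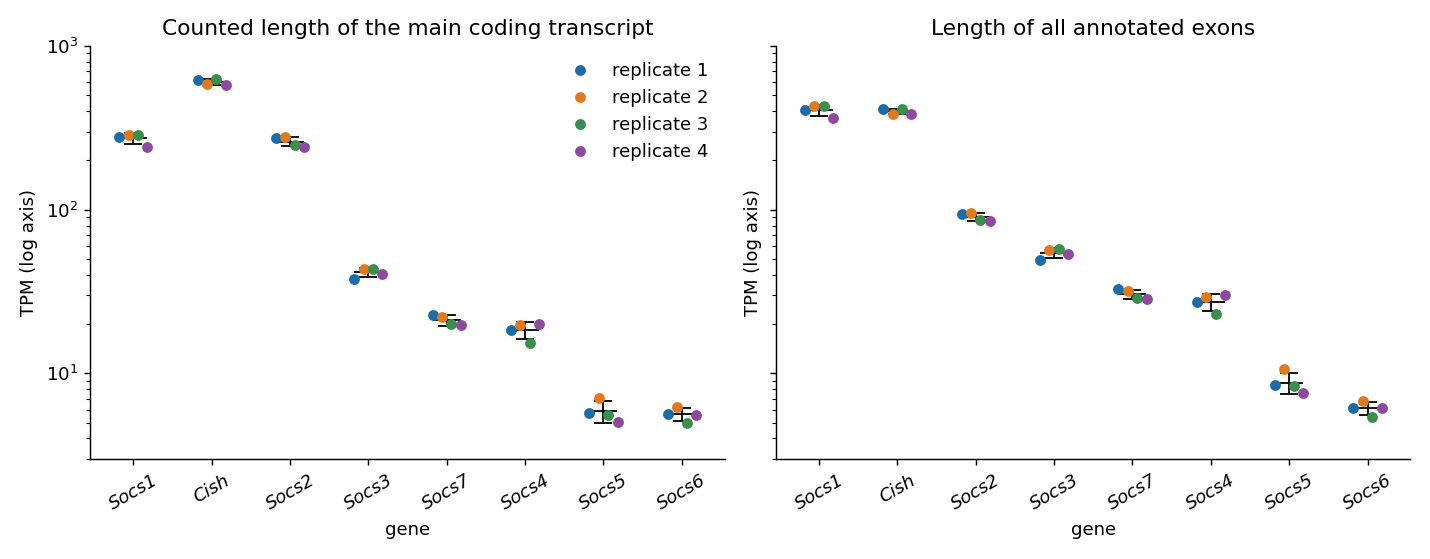
TPM (log axis) of the 8 SOCS genes in each library (coloured points) with the mean (bar) and SD over 4 libraries (whiskers), using the counted part of the main coding transcript as length on the left and the length of all annotated exons on the right. Socs1 and Cish lie together at 407 and 398 TPM on the right, whereas on the left Cish stands alone at 602 TPM and Socs2, at 260 TPM, lies beside Socs1, at 273 TPM.

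The 3′ untranslated regions were compared as well, since SOCS messages are known as short-lived and the pentamer ATTTA is a core of AU-rich decay elements. In the main coding transcripts of GENCODE M21, the pentamer occurred 17 times in Socs4, 10 in Socs6, 5 in Socs7 and 4 each in Socs3 and Socs5. Cish held 3 and Socs2 held 2. Socs1 held none in 1993 bp, although 65.3% of 10507 expressed protein-coding genes with a 3′ untranslated region held at least 1. Per kilobase, Socs4 (3.28), Cish (2.76) and Socs3 (2.71) were the densest members and Socs7 the sparsest after Socs1 (0.965), beside a median of 1.20 over expressed genes.

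How far each member varied between libraries was the second comparison. No SOCS gene passed the test for more variation than genes of its abundance show: edgeR's goodness-of-fit test called 0 of 8 members at an adjusted p under 0.05, where it called 0.378% of 13494 genes (smallest edgeR adjusted p among members, 0.99986). At an unadjusted p under 0.05 it also held 0 of 8 members, against 5.97% of all genes, and limma and DESeq2's dispersion trend called 0 of 8 as well. Beside such low shares, 0 of 8 does not set the family apart from other genes. In simulated counts the edgeR test called 11.9% of genes changed 1.5-fold in 1 library and 86.6% of those changed 2-fold. Smaller differences between libraries could therefore go uncalled. The highest value of Cish was 1.08 times its lowest. For Socs1 this ratio was 1.19, and the widest was that of Socs5, 1.39. The coefficient of variation over libraries was 3.95% for Cish, 5.89% for Socs2, 6.87% for Socs3, 6.92% for Socs7, 7.81% for Socs1, 8.94% for Socs6, 11.6% for Socs4 and 14.6% for Socs5. Counting error alone gives at most 0.635% for Cish and 5.47% for Socs5. The range of log2 CPM over libraries had a median of 0.25 over the members and 0.31 over all genes tested, which were not matched in abundance. In the pathway lists described below, the median was 0.22 for JAK genes, 0.23 for STAT genes and 0.21 for genes listed as other inhibitors. It was 0.22 for SOCS box partners, 0.22 for STAT5 or interleukin-2 targets, 0.26 for other SOCS box genes and 0.32 for cytokine receptors.

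The libraries took different places from member to member. With TMM-scaled counts, replicate 4, the shallowest library, was lowest for 4 of 8 members (Socs1, Socs2, Socs5 and Socs7), yet it was highest for Socs4. Replicate 3 was highest for Socs1, Cish and Socs3 and lowest for Socs4 and Socs6. The median deviation over the members was 0.04, 0.03, -0.03 and -0.08 (log2) in replicates 1 to 4, beside 0.00 in each library over all genes tested. Replicates 1 and 2, the libraries with Xist, were both above replicates 3 and 4 for Socs2, Socs5, Socs6 and Socs7, that is 4 of 8 members, as they were for 14.6% of all genes tested. Socs5 averaged 12.8 scaled CPM in replicates 1 and 2 and 10.9 in replicates 3 and 4. Socs7 averaged 72.1 and 64.6, Socs6 16.4 and 14.8, and Socs2 279 and 255 scaled CPM. The gap was narrow for Socs5, with deviations of -0.0021 in replicate 1 and -0.031 in replicate 3 (log2). In TPM, Socs6 was not higher in replicate 1 (6.156) than in replicate 4 (6.159). For no member were replicates 1 and 2 both below replicates 3 and 4, as for 15.3% of genes. Whether what sets these libraries apart had a part in this was not tested.

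**Figure D2:**
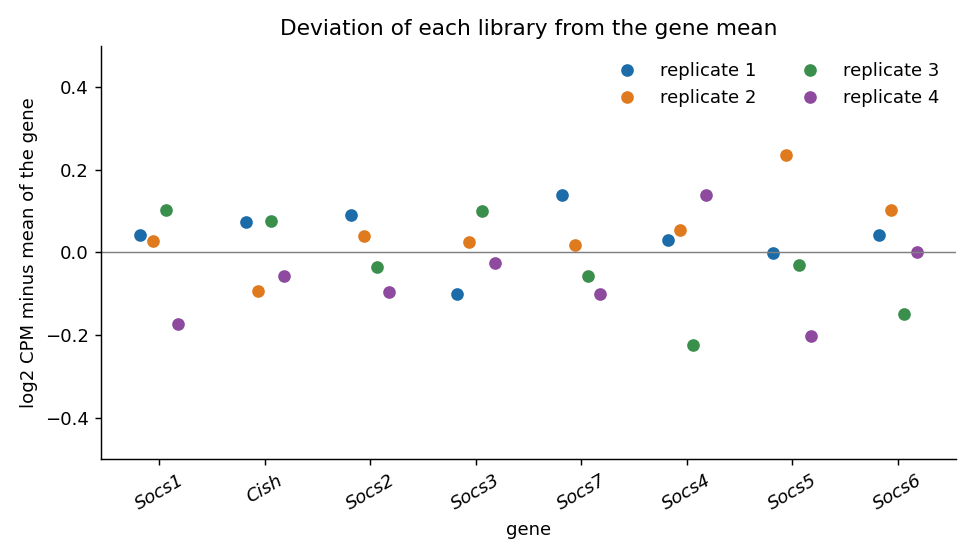
Deviation of log2 CPM (TMM-scaled) from the mean of each SOCS gene in each of 4 libraries (coloured points), in order of mean TPM. The widest spread is that of Socs5, 0.44 from lowest to highest library, and the narrowest that of Cish, 0.17.

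Socs5, the member with the widest range, was searched for genes of like pattern by the root mean square difference of log2 deviations over the 4 libraries. The nearest of 13493 genes were Zbed5 (0.017), Lgals8 (0.021) and Zfp518a (0.024), each highest in replicate 2 and lowest in replicate 4. With 4 libraries, a near match of this kind is only a description.

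The last comparison set the family beside the pathway it restrains, using lists of genes chosen by role and levels by exon length. The interleukin-2 receptor chains led the 33 cytokine receptors, of which 24 reached 1 TPM in every library. Il2ra stood at 1769 ± 120 TPM, Il2rb at 963 ± 35.9 TPM and the common gamma chain Il2rg at 277 ± 10.1 TPM, followed by Il21r at 266 ± 17.8 TPM (SD, n = 4). Il6st, which encodes gp130, measured 18.8 to 22.9 TPM, and its partner Il6ra 48.7 to 61.8 TPM. Lepr and Osmr had no count, and Ghr, the growth hormone receptor, had 3 counts in all. Il2 itself was at 1.57, 1.84, 1.16 and 4.61 TPM.

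All 4 JAK genes were expressed, with Jak3, the kinase bound to the common gamma chain, at 286 ± 9.76 TPM, above Jak1 (158 ± 11.7 TPM), Jak2 (112 ± 12.5 TPM) and Tyk2 (53.4 ± 3.01 TPM). All 7 STAT genes were expressed as well. Stat6 measured 282 ± 5.40 TPM, Stat5b 260 ± 11.1 TPM, Stat3 227 ± 18.7 TPM and Stat5a 182 ± 9.74 TPM. By exon length, Socs1 and Cish were above every JAK and STAT gene in every library. By main transcript length, Stat3 averaged 321 TPM, below Cish (602 TPM) and above Socs1 (273 TPM). Of 18 genes listed as STAT5 or interleukin-2 targets 16 reached 1 TPM in every library, led by Lta (2731 ± 118 TPM), Il2ra, Foxp3 and Myc (457 ± 16.8 TPM). By main transcript length, Ccnd3, which encodes cyclin D3, averaged 463 TPM, above Myc (356 TPM) and Foxp3 (324 TPM). The repressor gene Prdm1 stood at 0.397 ± 0.132 TPM.

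Partners of the SOCS box were expressed in 9 of 9 cases. Elob, which encodes elongin B, stood at 851 ± 113 TPM, the cullin modifier Nedd8 at 671 ± 37.6 TPM, the Nedd8-conjugating enzyme Ube2m at 247 ± 7.16 TPM and the ring protein Rnf7 at 103 ± 10.5 TPM. Eloc, which encodes elongin C, averaged 67.4 TPM, but 221 TPM by main transcript length, above Rnf7 (74.4 TPM under that rule). The scaffold Cul5 was the lowest partner, at 18.3 ± 1.87 TPM. Of 28 other genes with a SOCS box 14 reached 1 TPM in every library, with a list median of 1.75 TPM against 42.4 TPM for the SOCS family. They were led by Wsb1 at 111 ± 10.2 TPM, Spsb3 at 73.4 ± 4.28 TPM, Wsb2 at 33.5 ± 0.990 TPM and Asb6 at 32.3 ± 2.33 TPM, and 6 had no count. Wsb2 (86.1 TPM) lay above Spsb3 (68.6 TPM) by main transcript length.

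Genes listed as inhibitors of other kinds were broadly expressed, and whether each of them inhibits signalling in these cells was not tested. Of 23 listed, 22 reached 1 TPM in every library, led by the phosphatase genes Dusp4 (636 ± 29.2 TPM), Ptpn6 (455 ± 16.2 TPM), Ptpn1 (365 ± 13.8 TPM) and Dusp5 (343 ± 23.4 TPM). Among 19 substrates and binding partners of SOCS proteins 13 did, led by Lck (778 ± 15.4 TPM), Cd3e (173 ± 11.6 TPM), Jak1 and Rela (143 ± 5.94 TPM), and of 16 cytokines that induce SOCS genes 7 did, led by Tgfb1 (335 ± 10.3 TPM), Lif (210 ± 6.76 TPM), Tnf (184 ± 9.98 TPM) and Osm (80.9 ± 3.23 TPM). Il4, Il6 and Ifnb1 had no count. Among the listed inhibitors, Ptprc averaged 270 TPM by main transcript length, above Dusp5 (230 TPM).

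**Figure D3:**
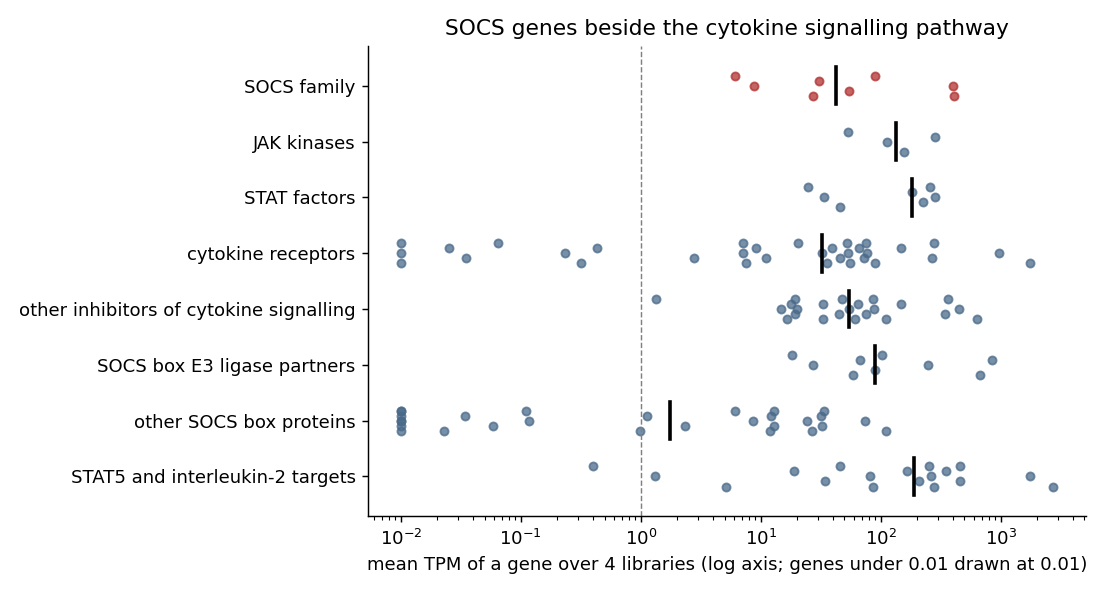
Mean TPM over 4 libraries (log axis) of each gene in the SOCS family (red) and in 7 lists of the surrounding pathway (blue), with the median of each list (black bar) and 1 TPM (dashed line). All 8 SOCS genes lie to the right of 1 TPM, between 6.14 and 407 TPM, and the other SOCS box genes have a median of 1.75 TPM.

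Among these pathway lists, edgeR's goodness-of-fit test called 2 genes as variable between libraries, both among the 26 cytokine receptors tested, beside the 0.378% of all genes. Il27ra, the receptor chain for interleukin-27, measured 66.7 and 68.9 TPM in replicates 1 and 2 and 38.4 and 37.7 TPM in replicates 3 and 4 (edgeR adjusted p = 3.04e-07). Those are the libraries with and without Xist, and the part of that split in the result was not tested. Epor, the erythropoietin receptor, measured 2.33 TPM in replicate 1 and 10.5, 9.54 and 7.96 TPM in replicates 2 to 4 (edgeR adjusted p = 0.00942). The Epor call was lost without replicate 1 (edgeR adjusted p = 0.99996), without replicate 3 (edgeR adjusted p = 0.0665) and by limma (adjusted p = 0.192), whereas Il27ra passed under every alternative, with adjusted p of at most 0.0199. The other lists held 0 calls.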

How the data were processed

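The authors deposited raw gene counts, whole numbers of read pairs without normalization, made with featureCounts 1.4.6-p4 on STAR alignments, per the file headers: reverse-strand counting, exons joined by gene, GENCODE M13. The labels name mm10. Reads that map to several places or genes were not counted; no exon of a SOCS gene overlapped another gene on its strand. The labels title the assay total RNA, whereas the linked protocol is named for poly(A)+ RNA. Symbols and transcripts came from GENCODE M21 (50376 of 50600 identifiers matched), promoter windows from RefSeq (GRCm38.p6).

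TPM was computed from counts and exon lengths, and genes at 1 TPM or more in every library were called expressed. Members were compared on log2(TPM + 1) by exact sign-flip tests over 28 pairs. For variation, genes passing filterByExpr (minimum count 10) were scaled by TMM and fitted with an intercept and trended dispersion in edgeR 4.0.16 under R 4.3.3. Its chi-square goodness of fit was adjusted over 13494 genes, and the script was checked on simulated data. limma 3.58.1 and DESeq2 1.42.0 gave alternatives. Depth was 32648138 to 94983494 counts, where a floor of 3 counts is 0.0919 to 0.0316 CPM; this covers counting error only.

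Text names all members, the 4 highest genes of each pathway list, genes without counts and genes called variable. A few others (Il6st, Il6ra, Ghr, Il2, Ccnd3, Prdm1, Cul5, Eloc, Ptprc, Ikzf2, single markers of other cells) were named after their values were seen. One marker gene is not reported here. Members and lists were chosen with earlier results of these data known.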

Additional observations from a re-analysis of the deposited data

Results flagged for a closer look

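Of 60 values examined, those of the 8 SOCS members and of the 4 highest genes in each list, 4 had 1 library far from the other libraries by Dixon's criterion, where chance picks out about 1 in 20. None was a SOCS gene. Ptpn6 was highest in replicate 4, at 478.9 TPM against 445.4 to 447.4 TPM, and Myc in replicate 3, at 482.3 TPM against 445.9 to 451.6 TPM. Cd79a was highest in replicate 2, at 1.04 TPM against 0.615 to 0.674 TPM. Hba-a1 was highest in replicate 4, at 0.245 TPM against 0 to 0.0417 TPM, and rests on 3 counts in all.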

How the results depend on the processing

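The family order depended on gene length more than on any other choice. In CPM, without length correction, 5 of 28 pair differences changed sign: Socs1 minus Cish (-2.36), Socs1 minus Socs2 (-0.79), Socs3 minus Socs7 (-0.48), Socs3 minus Socs4 (-0.25) and Socs5 minus Socs6 (-0.37, log2). With main coding transcript lengths only Socs1 minus Cish did (-1.14), and means were 601.8 TPM for Cish, 272.9 for Socs1, 260.3 for Socs2, 41.3 for Socs3, 21.1 for Socs7, 18.3 for Socs4 and 5.87 for Socs5. Socs1 minus Cish ranged from -0.013 (without replicate 2) to 0.066 (without replicate 4). The median difference between short and long members was 2.70 in CPM, 4.53 with transcript lengths and 3.43 to 3.62 under a mean or a pseudocount of 0.1; with a library left out it was 3.48 to 3.58. The count of variable genes, 51, was 15 by limma, 61 with DESeq2's trend, 38 without a count filter, 67 at a mean of 1 CPM or more, and 17 to 56 with a library left out (17 without replicate 1, 23 without replicate 3); it held 0 SOCS members under each of these. Over all lists 129 of 179 genes were expressed, and 121 at 5 TPM. Causes were not tested. Members were paired within a library, but no comparison of conditions was possible because there is a single group.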
